A study of Mus musculus with 3 samples.

Results

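Lung tumours of mice with Cas9 (KTC, 9 mice, 5 female and 4 male) were compared with lung tumours of mice without Cas9 (KT, 4 mice, 2 female and 2 male), for every guide RNA of a lentiviral pool of 13 guides. These 13 mice were taken by their genotype label from the 17 mice of the series. Both genotypes share the alleles that the labels write as K and T. KTC is labelled as the same genotype with Cas9 added. Neither genotype carries the letter P, which by usage in the field, not by the labels, stands for deleted p53. The p53 gene was therefore taken as intact in both. Both groups were given 60 µl of the same viral pool into the trachea, and lungs were taken 15 weeks later. The sources used here do not give the age or strain of the mice or the promoter that drives Cas9. The identifiers of KT and KTC mice begin with different letters, so a difference between cohorts of animals and the presence of Cas9 cannot be told apart.

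In tumour barcoding with deep sequencing (Tuba-seq), each virus delivers Cre, 1 guide RNA and a random barcode, so a tumour is a clone that shares 1 guide and 1 barcode. Cas9 cuts the gene that the guide names, and without Cas9 a guide is only a label, so KT mice measure what the guides look like when nothing is cut. The size of a tumour was deposited as a number of neoplastic cells, worked out from barcode reads with the help of 3 benchmark cell lines, 500000 cells of each, mixed into every lung. Of the 13 guides, 8 target 4 genes and 5 (NT1, NT2, Neo1, Neo2 and Neo3) are inert controls.

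All 4 genes restrain growth in some setting. Ambra1 (3 guides) encodes the adaptor by which a cullin-based ubiquitin ligase recognises D-type cyclins and marks them for degradation. Rb1 (2 guides) encodes the retinoblastoma protein, which holds back the G1 to S transition until kinases bound to D-type cyclins phosphorylate it. Apc (1 guide) encodes a scaffold of the complex that degrades beta-catenin in Wnt signalling, and Rbm10 (2 guides) encodes an RNA-binding protein that regulates splicing and is often mutated in human lung adenocarcinoma.

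The barcode is what ties a cell count to a tumour, and the largest Ambra1 tumour and the largest inert tumour of each genotype are shown here to make this concrete. Every listed barcode had 30 letters, of which 10 were fixed (lower case) and 20 varied (capitals). The first line is the largest Ambra1 tumour of all KTC mice (guide Ambra1#2, mouse 2, 197929 cells, 35273 reads) and the second is the largest inert tumour of all KTC mice (guide NT2, mouse 8, 110040 cells, 47503 reads). The third is the largest Ambra1 tumour of all KT mice (guide Ambra1#1, mouse 2, 75272.9 cells, 10276 reads) and the fourth the largest inert tumour of all KT mice (guide NT2, mouse 3, 289002 cells, 14216 reads). In KTC the largest Ambra1 tumour was the larger of the pair, and in KT it was the smaller. Each is a single maximum over unequal numbers of tumours, and the tumours of a pair come from different mice. The largest Rbm10 (167886 cells) and Apc (122754 cells) tumours of KTC mice were also larger than the largest inert one, and the largest Rb1 tumour (108507 cells) was not. The KTC NT2 barcode was listed in 1 mouse, and each of the other barcodes shown was listed in 3 of the 13 mice.
Ambra1#2, KTC: gcGTTTCtaTTTATgcAGGATtaTTTTAgc
NT2, KTC: gcAAAGAtaAGCCAgcAAGCTtaATACGgc
Ambra1#1, KT: gcGATATtaTCTATgcTTGCAtaTTTCAgc
NT2, KT: gcGCTAGtaTCGTTgcGGCGGtaTCTCGgc

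Tumours of at least 500 cells were analysed, 45493 in all. KT mice held 2079 to 13332 tumours and KTC mice 117 to 5151. A tumour of 500 cells rested on 24.6 to 465 reads in KT mice and 56.3 to 264 reads in KTC mice. KTC mouse 6 stood apart with 117 tumours, of which 29 were inert, and KTC mouse 7 had 340 tumours, of which 105 were inert. Of all tumours, 26.9% (12255 of 45493) carried a guide and barcode that was listed in more than 1 of the 13 mice. This share differed between guides, from 6.80% of Rbm10#2 tumours to 81.8% of Ambra1#1 tumours, so the main values of Ambra1 are also given over barcodes listed in 1 mouse only.

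Tumours with Ambra1 guides were larger than inert tumours of the same lung in every KTC mouse, and lay near the inert level in KT mice. Size was the mean of a log-normal distribution fitted by maximum likelihood, taken as the log2 ratio of a guide to all inert guides of the same mouse. For Ambra1#1 the log2 size ratio was -0.24, -0.10, -0.09 and -0.24 in the 4 KT mice, and ran from 1.08 (mouse 7) over a median of 2.11 to 2.63 (mouse 2) in KTC mice. The groups did not overlap, and the mean was 4.10-fold higher in KTC (log2 difference 2.03, adjusted exact p = 0.00373). In cells, mean tumour size for this guide was 5333 ± 2554 in KTC and 1421 ± 229.6 in KT (SD, n = 9 and 4).

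The other Ambra1 guides moved the same way. Ambra1#2 gave log2 size ratios of -0.25, 0.01, -0.05 and -0.15 in KT mice and of 1.25 to 2.56, with a median of 1.51, in KTC mice, which is 3.32-fold higher with no overlap (log2 difference 1.73, adjusted exact p = 0.00373). Ambra1#3 gave -0.06, -0.11, -0.07 and 0.07 in KT mice. In KTC mice it spread widest of all guides, from 0.04 (mouse 7) over a median of 1.06 to 2.52 (mouse 9), and 8 of 9 KTC mice were above all KT mice (2.26-fold, log2 difference 1.18, adjusted exact p = 0.0246). The call for Ambra1#3 was lost when KT mouse 1, 2 or 3 was left out (adjusted exact p up to 0.0636), with differences of 1.01 to 1.32 over all mice left out. At a minimum of 1000 cells the Ambra1#3 size difference was 0.88, 7 of 9 KTC mice lay above all KT mice and 1 below them, and the call was lost (adjusted exact p = 0.106).

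Set against inert tumours of the same mouse, Apc#1 tumours were larger in all 9 KTC mice than in any KT mouse. Their log2 size ratio was 0.13, -0.06, 0.25 and 0.19 in KT mice and 0.44 to 1.37, with a median of 0.83, in KTC mice. The groups did not overlap, and the difference was 1.66-fold (log2 difference 0.74, adjusted exact p = 0.00373). In cells this was 2470 ± 715 in KTC (SD, n = 9) against 1749 ± 335 in KT (SD, n = 4).

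Rb1 and Rbm10 guides had the smallest differences at this minimum. Rb1#1 was 1.37-fold (log2 difference 0.45, adjusted exact p = 0.0480) and Rb1#2 1.39-fold (0.48, adjusted exact p = 0.0246) above KT. KTC mice ran from 0.21 to 1.36 for Rb1#1 and from -0.16 (mouse 6, with 1 such tumour) to 1.04 for Rb1#2. Rbm10#2 was 1.47-fold above KT (log2 difference 0.56, adjusted exact p = 0.0410), with KTC mice from -0.02 to 1.24. Rbm10#1 had a log2 difference of 0.42, the smallest of the 8 guides, and missed the threshold (adjusted exact p = 0.0951), and 2 of 9 KTC mice lay below all KT mice. In cells, Rb1#1 tumours measured 1921 ± 473 in KTC and 1659 ± 111 in KT, and Rb1#2 tumours 1906 ± 656 and 1549 ± 274. Rbm10#1 tumours measured 1797 ± 533 and 1573 ± 253, and Rbm10#2 tumours 2029 ± 786 and 1545 ± 126 (SD, n = 9 and 4). The calls of these guides were fragile. With each of the 13 mice left out in turn, Rb1#1 passed in 4 fits, Rbm10#2 in 5 and Rb1#2 in 10. With labels permuted within each sex, Rb1#1 size was not called (0.45, adjusted exact p = 0.0726), and 6 guides passed. At a minimum of 1000 cells the Rbm10#2 size difference was 0.37 and was not called (adjusted exact p = 0.386).

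In total, 7 of the 8 targeting guides (87.5%) had larger tumours relative to inert tumours with Cas9. These calls came from two-sided exact permutation tests of the mouse labels, adjusted over the 8 guides after Benjamini-Hochberg. The smallest p that 9 against 4 mice allow is 0.0014. For size 8 of 8 guides passed at a minimum of 200 cells and 5 of 8 at 1000 cells, where the ratios of KTC mouse 6 rest on 1 inert tumour. Among tumours of at least 5000 cells 0 of 8 guides passed, with log2 differences of -0.33 to 0.37 and 8 KTC mice. The 5 inert guides, each set against the other 4 inert guides of its mouse, give a background for differences between guides. A shift shared by all inert tumours would move all 8 targeting ratios and cannot be seen in this way. At the minimum of 500 cells none of the 5 inert guides (0%) passed for size, number or summed cells. None had an unadjusted p under 0.05 in these exact tests (smallest exact p = 0.0937), and their log2 differences lay between -0.28 and 0.19. At a minimum of 200 cells 1 of the 15 inert values passed, the size of Neo1 (log2 difference -0.10, adjusted exact p = 0.0280). The 8 ratios of a mouse share 1 denominator, its inert tumours, and are therefore not independent of each other. Inert tumours measured 1350 ± 325 cells in KTC and 1591 ± 228 in KT (SD, n = 9 and 4) (adjusted exact p = 0.317, over 6 whole-lung values), with the lowest mean in KTC mouse 6 at 666 cells.

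**Figure D1:**
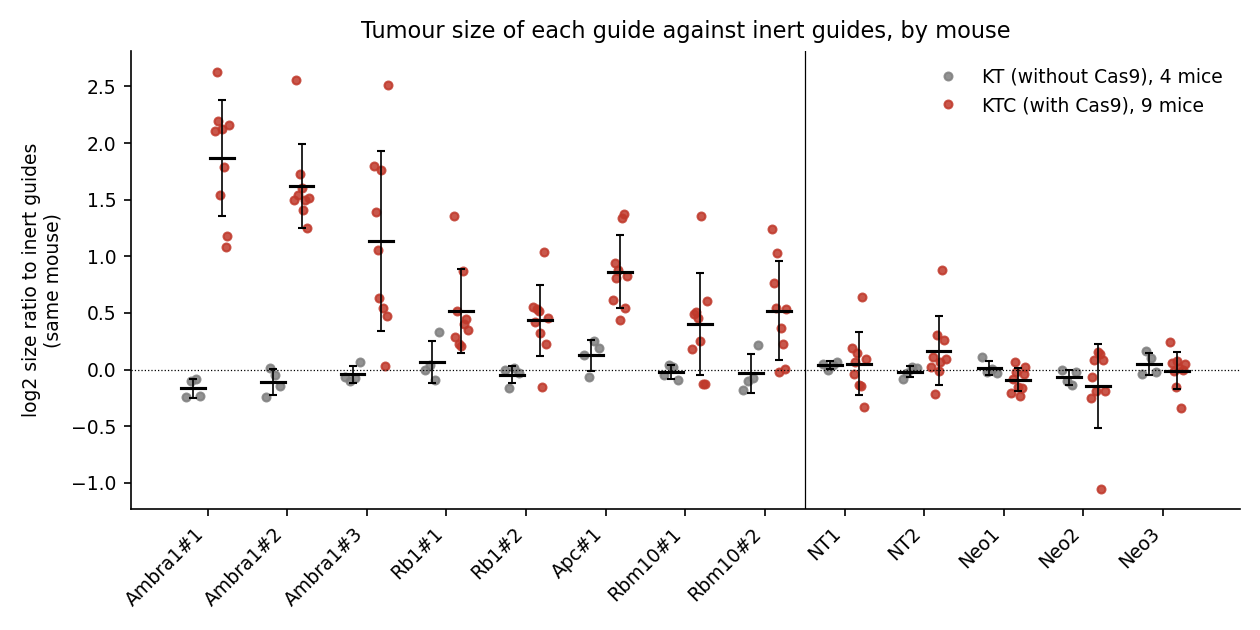
Log2 ratio of the size of each guide's tumours to inert tumours of the same mouse (vertical axis), for 8 targeting guides and, right of the line, 5 inert guides against the other 4. Points are mice (4 KT in grey, 9 KTC in red), bars the mean and whiskers 1 SD. KTC points of Ambra1#1, Ambra1#2 and Apc#1 all lie above the KT points, and inert guides of both genotypes centre near 0.

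Ranked by size within a mouse, an Ambra1 guide had the largest tumours in 9 of 9 KTC mice and in 0 of 4 KT mice. Ambra1#1 led in 5 KTC mice, Ambra1#2 in 3 and Ambra1#3 in 1. In 5 of 9 KTC mice the 3 Ambra1 guides held the top 3 places together, and Ambra1#1 and Ambra1#2 were among the top 3 in all 9. Apc#1 had a median rank of 4 in KTC mice and never came last. In KT mice Apc#1 led in 2 mice and Rb1#1 in the other 2, and Ambra1#1 had a median rank of 7 of 8. An Ambra1 guide led in 7 of 9 KTC mice and in 0 of 4 KT mice over barcodes listed in 1 mouse only.

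The size effects of 2 guides were also set against each other directly, as the log2 ratio of their sizes in the same mouse, in which no inert tumour enters. Of the 28 pairs, 11 (39.3%) differed between KTC and KT. Ambra1#1 differed from all 5 guides of other genes (log2 differences of 1.30 to 1.61, adjusted exact p = 0.00559 to 0.0196), and so did Ambra1#2 (0.99 to 1.31, adjusted exact p = 0.00559 to 0.00870). Ambra1#3 differed from none of the 5, with log2 differences of 0.44 to 0.76 (adjusted exact p = 0.274 to 0.537, over 28 pairs). At a minimum of 1000 cells 1 of the 28 pairs passed, and over barcodes listed in 1 mouse only 2 did. Among guides of Rb1, Apc and Rbm10, 0 of 8 pairs of different genes passed (largest difference 0.32, adjusted exact p of at least 0.339).

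Of the 5 pairs of guides of 1 gene, 1 differed. Rb1#1 and Rb1#2 differed by -0.03 in their KTC against KT effect (adjusted exact p = 0.930) and Rbm10#1 and Rbm10#2 by -0.14 (adjusted exact p = 0.762). Ambra1#1 exceeded Ambra1#2 by 0.31 (adjusted exact p = 0.303) and Ambra1#2 exceeded Ambra1#3 by 0.55 (adjusted exact p = 0.350). Ambra1#1 exceeded Ambra1#3 by 0.86, or 1.81-fold, with the ratio above all KT mice in 8 of 9 KTC mice (adjusted exact p = 0.0427). That call was lost in 11 of the 13 fits that leave out 1 mouse, and over barcodes listed in 1 mouse only, where the pair Ambra1#1 minus Ambra1#3 size had a difference of 0.46 (adjusted exact p = 0.326). Apc has 1 guide, so no second guide checks it.

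The same comparison was made at single points of the size distribution. At the median tumour all 3 Ambra1 guides passed and neither Rb1 guide did. At the median tumour, the KTC over KT fold of the guide to inert ratio was 2.24 for Ambra1#1, 1.92 for Ambra1#2 and 1.62 for Ambra1#3. At the 95th percentile the same folds were 5.79, 4.90 and 2.72. At the 99th percentile they were lower again, at 3.92, 3.10 and 2.10, and Ambra1#3 was not called (adjusted exact p = 0.129). Over barcodes listed in 1 mouse only, the 95th percentile folds were 4.50 for Ambra1#1, 4.77 for Ambra1#2 and 2.60 for Ambra1#3, and Ambra1#3 missed the threshold both there (adjusted exact p = 0.0559) and at the median (1.74-fold, adjusted exact p = 0.0515). Rb1#1 had 1.04-fold at the median (adjusted exact p = 0.524) and 1.80-fold at the 95th percentile (adjusted exact p = 0.0895), and Rb1#2 1.09-fold (adjusted exact p = 0.253) and 1.94-fold (adjusted exact p = 0.0269). Rb1#2 missed at the 95th percentile too over barcodes listed in 1 mouse only (1.67-fold, adjusted exact p = 0.0559). Apc#1 had 1.28-fold at the median (adjusted exact p = 0.0839) and 2.02-fold at the 95th percentile (adjusted exact p = 0.0187). At the 99th percentile neither Apc#1 (2.24-fold, adjusted exact p = 0.0970) nor Rb1#2 (1.80-fold, adjusted exact p = 0.280) passed. Rbm10#1 passed at the median (1.16-fold, adjusted exact p = 0.0291) and missed at the 95th percentile (1.48-fold, adjusted exact p = 0.372). Rbm10#2 likewise passed at the median (1.25-fold, adjusted exact p = 0.00373) and missed at the 95th percentile (1.74-fold, adjusted exact p = 0.0615). Whether a guide's fold differed between percentiles was not tested.

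Relative to inert tumours, 6 of the targeting guides also gave more tumours of at least 500 cells with Cas9. In plain counts each targeting guide had fewer tumours in all KTC mice together than in all KT mice, as with 1181 against 1917 for Ambra1#1. Number was the log2 ratio of the count of a guide's tumours to the count of inert tumours in the same mouse. The 3 Ambra1 guides stood 2.09-, 2.14- and 2.14-fold above KT (Ambra1#1 to Ambra1#3, adjusted exact p = 0.0392, 0.0392 and 0.0336). Rbm10#1 was 1.60-fold (adjusted exact p = 0.0392), Rb1#1 1.51-fold (adjusted exact p = 0.0336) and Apc#1 1.46-fold (adjusted exact p = 0.0336) above KT. Rb1#2 was 1.12-fold (adjusted exact p = 0.697) and Rbm10#2 1.52-fold (adjusted exact p = 0.0655) above KT and did not pass. Without KTC mouse 6, which had 1 Rb1#2 tumour, the Rb1#2 number difference went from 0.17 to 0.37 on the log2 scale and passed (adjusted exact p = 0.0377). That makes 6 of 8 guides (75%), and 0 of 5 inert guides (0%) set against the other 4. With each of the 13 mice left out in turn, these 6 calls held in 5 to 8 of the fits.

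The number calls depended on the minimum size. With all listed barcodes, down to 2 reads, no targeting guide was called in excess. Rbm10#1 and Rbm10#2 then had fewer barcodes per inert barcode in KTC than in KT (0.816-fold each, adjusted exact p = 0.0112 each), and so had Ambra1#1 (0.842-fold, adjusted exact p = 0.0336), while the other 5 guides lay between 0.894- and 1.02-fold (adjusted exact p of at least 0.103). At 200 cells 0 of 8 guides passed, at 500 cells 6 and at 1000 cells 4. At 1000 cells Rb1#1, Apc#1 and Rbm10#1 were not called (2.11-, 2.29- and 2.47-fold, adjusted exact p = 0.175, 0.118 and 0.118). Rb1#2 was called (1.46-fold, adjusted exact p = 0.0476). KTC mouse 6 then had 1 inert tumour and no Rb1#2 tumour. Rb1#2 thus rested on 8 KTC mice and the other guides on 9, so these calls do not compare like sets of mice. At 5000 cells 7 of 8 passed (8 KTC mice, since mouse 6 had no inert tumour of that size), with Ambra1#1 15.5-fold, Ambra1#2 14.2-fold and Ambra1#3 6.82-fold above KT. KTC mice listed 37590 to 77847 barcodes and KT mice 122081 to 214975, with no overlap, and the part of this gap in the ratios over all listed barcodes was not tested.

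**Figure D2:**
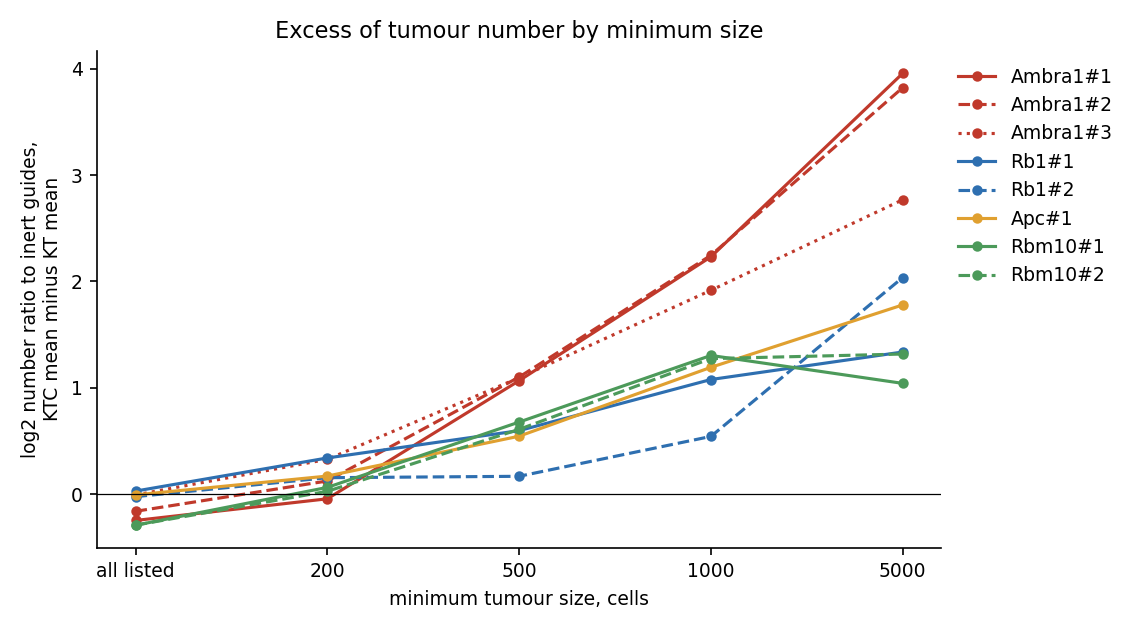
Difference between KTC and KT means of the log2 number ratio of each targeting guide to inert guides (vertical axis), against the minimum tumour size in cells (horizontal axis, categories not spaced to scale). Lines are guides, coloured by gene. The 3 Ambra1 lines climb from -0.25, -0.16 and -0.01 over all listed barcodes to 3.96, 3.82 and 2.77 at 5000 cells.

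Number and size together set the summed cells of a guide, its burden. Relative to inert guides, burden was 8.15-, 6.95- and 4.74-fold higher in KTC for Ambra1#1, Ambra1#2 and Ambra1#3 (adjusted exact p = 0.00373 each), with all 9 KTC mice above all KT mice for each. Apc#1 was 2.68-fold (adjusted exact p = 0.00559) and Rb1#1 2.24-fold (adjusted exact p = 0.0179) higher, again with all 9 KTC mice above all KT mice. Rbm10#1 (2.27-fold, adjusted exact p = 0.0597), Rbm10#2 (1.91-fold, adjusted exact p = 0.105) and Rb1#2 (1.78-fold, adjusted exact p = 0.116) did not pass. Without KTC mouse 6 the Rb1#2 burden difference went from 0.83 to 1.13 on the log2 scale and passed (adjusted exact p = 0.00323). The count was 5 of 8 guides (62.5%), and 0 of 5 inert guides (0%) set against the other 4.

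Since a fixed minimum lets small tumours pass once they are enlarged, size was also taken over numbers predicted from KT mice. As many of a guide's largest tumours were kept in a mouse as the KT ratio of guide to inert tumours predicts from its inert tumours. Inert tumours had at least 500 cells, but the guide had no minimum, so smaller barcodes entered where it had too few tumours. Where a guide had more tumours than predicted, only its largest entered, so an excess in number also raised this size. All 8 guides then passed, and these calls do not separate size from number. Rbm10#1 passed here, was not called for size alone (adjusted exact p = 0.0951) and was called for number (adjusted exact p = 0.0392). Relative to inert tumours, Ambra1#1 had 8.14-fold, Ambra1#2 6.26-fold and Ambra1#3 3.87-fold larger tumours in KTC (adjusted exact p = 0.00373 each). Apc#1 followed with 2.45-fold (adjusted exact p = 0.00895), and the Rbm10 and Rb1 guides lay between 1.69- and 2.00-fold (adjusted exact p = 0.00895 to 0.0350). All 8 guides passed as well over barcodes listed in 1 mouse only, an alternative chosen after seeing the data. Ambra1#1 was then at 5.17-fold, Ambra1#2 at 5.23-fold and Ambra1#3 at 3.50-fold (adjusted exact p = 0.0112 to 0.0224). For Ambra1#1, 8 of 9 KTC mice lay above all KT mice there and 1 below them. The place of Apc relative to Rbm10 depended on the minimum, since at 200 cells the log2 size difference of Rbm10#2 (0.66) stood above that of Apc#1 (0.62).

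Ambra1 guides held a larger share of tumours in KTC than in KT lungs between 5000 and 100000 cells, and below 5000 cells the difference did not pass. Of tumours of 500 to 1000 cells, 17.9% ± 7.4 (SD, n = 9) carried an Ambra1 guide in KTC and 16.3% ± 2.5 (SD, n = 4) in KT (adjusted exact p = 0.939, over 4 genes and 5 ranges). From 1000 to 5000 cells the shares were 27.9% ± 13.5 and 14.8% ± 1.4 (adjusted exact p = 0.399). From 5000 to 20000 cells they were 55.8% ± 20.3 and 13.0% ± 2.7 (adjusted exact p = 0.0280), and from 20000 to 100000 cells 60.6% ± 16.4 and 13.3% ± 9.5 (adjusted exact p = 0.0280). In both of these ranges all 9 KTC mice were above all 4 KT mice.

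By mouse, the Ambra1 share of tumours of 5000 to 20000 cells was 14.5%, 12.1%, 15.8% and 9.59% in KT and ran from 38.2% (mouse 3) over 53.1% (mouse 8) to 100% (mouse 6, 3 of 3 tumours) in KTC. Pooled over mice these were 693 of 1494 KTC tumours against 255 of 1791 KT tumours. From 20000 to 100000 cells the pooled counts were 214 of 303 against 31 of 195. Some mice had few tumours in that range, with 1 of 2 in KTC mouse 6, 2 of 5 in KTC mouse 7 and 0 of 8 in KT mouse 4, and each mouse had equal weight. At 100000 cells and above, 6 of 13 KTC tumours and 0 of 9 KT tumours carried an Ambra1 guide, which was not distinguishable with 5 and 3 mice (adjusted exact p = 0.911).

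These 2 Ambra1 shares were the only calls among the 20 gene and range combinations (10%). Rb1, Apc and Rbm10 shares differed by -3.55 to 4.48 percentage points in the 4 ranges below 100000 cells, and the nearest to the threshold was Rbm10 from 1000 to 5000 cells, with 20.3% ± 3.3 in KTC and 15.8% ± 1.4 in KT (SD, n = 9 and 4) (adjusted exact p = 0.121). The inert share in KTC was 47.1%, 36.2%, 18.9% and 7.44% in the 4 ranges below 100000 cells. In KT it was 52.7%, 53.9%, 57.0% and 56.9% in the same ranges. Without any 1 of the 4 KT mice neither Ambra1 share was called (adjusted exact p up to 0.0909), while over all 13 mice left out in turn the differences stayed at 37.2 percentage points or more from 5000 to 20000 cells and at 42.9 or more from 20000 to 100000 cells. With 9 against 3 mice the smallest exact p is 0.00455, which adjusts to 0.0455 over 20 tests if both shares reach it and to 0.0909 if 1 does. Both calls were also lost over barcodes listed in 1 mouse only, where the Ambra1 share of tumours of 5000 to 20000 cells differed by 17.1 percentage points and the Ambra1 share of tumours of 20000 to 100000 cells by 33.7 (adjusted exact p = 0.140 each). Leaving out shared barcodes removes most Ambra1 tumours and few of most other guides, which lowers the share itself. The part of this removal in the lost calls was not tested.

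**Figure D3:**
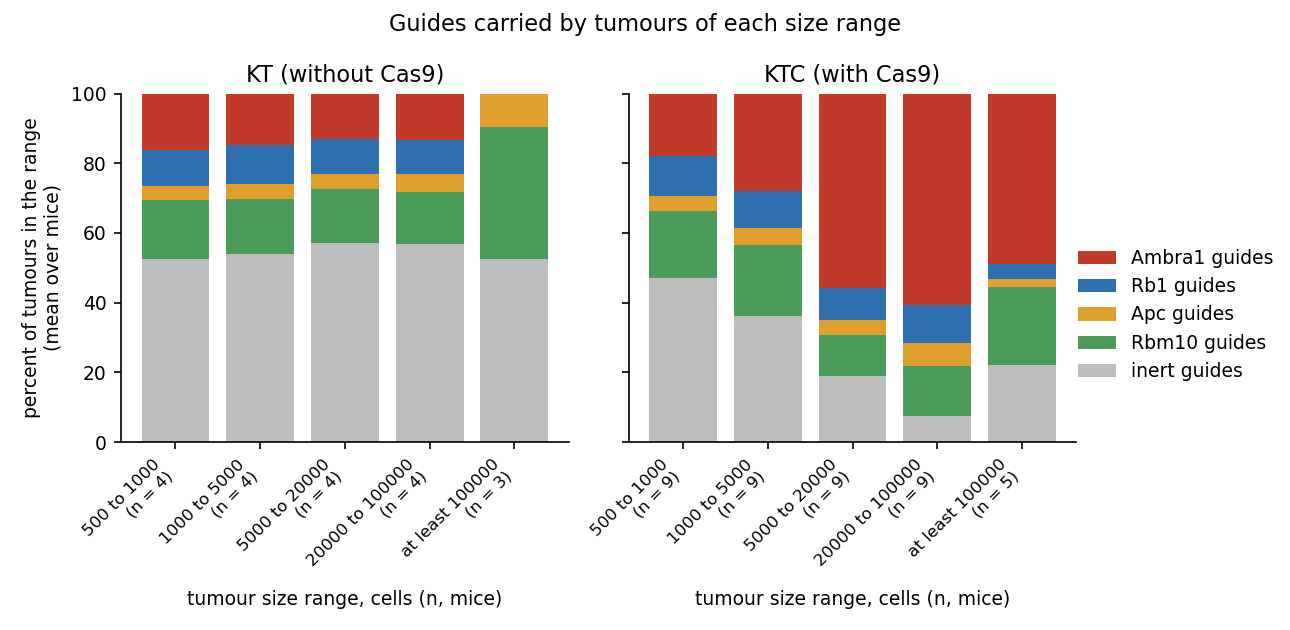
Percent of the tumours of a size range that carry guides of each gene (vertical axis, mean over mice), for 5 ranges in cells (horizontal axis, with the number of mice that have a tumour in the range). KT is on the left and KTC on the right. The Ambra1 share stays between 13.0% and 16.3% in KT below 100000 cells and climbs from 17.9% to 60.6% in KTC.

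Counted by cells, 42.9% ± 6.3 (SD, n = 9) of the tumour cells of a KTC lung carried an Ambra1 guide, against 14.2% ± 2.3 (SD, n = 4) in KT (adjusted exact p = 0.00559, 1 of 4 genes or 25%). The 4 KT mice had 15.2%, 15.0%, 15.7% and 10.8%, and KTC mice ran from 31.4% (mouse 4) over 43.4% (mouse 3) to 49.9% (mouse 6), with no overlap. The call held with each of the 13 mice left out in turn. Over barcodes listed in 1 mouse only the shares were 17.2% ± 4.3 in KTC and 5.30% ± 0.96 in KT (SD, n = 9 and 4), so the difference went from 28.8 to 11.9 percentage points, still with no overlap (adjusted exact p = 0.00559). Shares of the other genes did not pass. Rbm10 guides carried 16.9% ± 6.6 of the cells in KTC and 17.3% ± 2.5 in KT, Rb1 guides 9.91% ± 2.14 and 10.4% ± 0.79, and Apc guides 5.88% ± 2.54 and 4.84% ± 0.91 (n = 9 and 4, adjusted exact p = 0.934 each). The inert share was 24.3% ± 8.0 in KTC and 53.3% ± 1.3 in KT, and all 9 KTC mice lay below all KT mice. Shares of 1 lung sum to 100%, so a gain for Ambra1 lowers the rest.

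**Figure D4:**
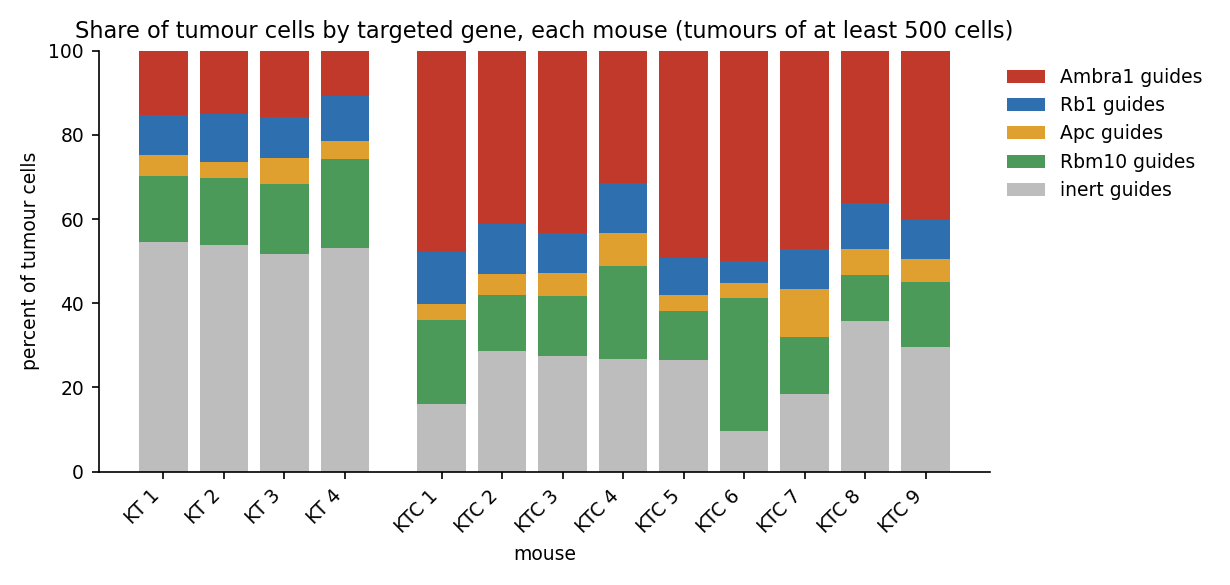
Percent of all cells in tumours of at least 500 cells that carry guides of each gene (vertical axis), for each of the 4 KT and 9 KTC mice. Each bar is 1 mouse. The Ambra1 share is 10.8% to 15.7% in KT mice and 31.4% to 49.9% in KTC mice.

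The cells of Ambra1 tumours sat in larger tumours. In KTC, 74.4% ± 11.7 (SD, n = 9) of the cells with an Ambra1 guide were in tumours of at least 5000 cells, against 31.9% ± 7.5 (SD, n = 4) in KT. For inert guides the same share was 31.1% ± 15.4 in KTC and 36.2% ± 7.5 in KT. For Apc it was 56.5% ± 25.1 and 39.6% ± 17.3, for Rb1 50.4% ± 21.0 and 32.1% ± 9.1, and for Rbm10 46.6% ± 16.5 and 39.2% ± 8.2. These shares were not tested.

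Among the 10 largest tumours of each lung, Ambra1 guides made up 48 of 90 in KTC (3 to 8 a mouse) and 3 of 40 in KT (0 to 2 a mouse). Over barcodes listed in 1 mouse only, Ambra1 guides made up 31 of 90 (1 to 8 a mouse) and 0 of 40. Over all barcodes, inert guides made up 10 of 90 and 22 of 40. Rb1 had 12 of 90 and 2 of 40, Rbm10 11 of 90 and 7 of 40, and Apc 9 of 90 and 6 of 40. The single largest tumour of a KTC lung carried an Ambra1 guide in 3 mice, an Rbm10 guide in 3, an inert guide in 2 and the Apc guide in 1. In KT it was inert in 2 mice, Apc in 1 and Rbm10 in 1, so the top tumour alone did not separate the genotypes.

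No whole-lung value passed the threshold (0 of 6, 0%). KTC lungs had 5.58-fold fewer tumours (geometric means, exact p = 0.0210, adjusted exact p = 0.0629) and 7.57-fold fewer inert tumours (exact p = 0.0182, adjusted exact p = 0.0629) than KT lungs, and these 2 were the only values with an unadjusted p under 0.05. Total tumour cells were 3.92-fold lower (adjusted exact p = 0.162). The 10 largest tumours held 20.4% ± 15.1 (SD, n = 9) of the cells in KTC and 7.23% ± 5.68 (SD, n = 4) in KT (adjusted exact p = 0.162). Without KTC mice 6 and 7, chosen after seeing the data, both numbers passed (log2 tumour number -1.77 and log2 inert tumour number -2.07, adjusted exact p = 0.0455 each), and 7 guides passed for size, 7 for number and 7 for burden.

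Both sexes gave the same direction for all 8 guides in size, number and burden, except that Rb1#2 number in males was nearly equal (log2 difference 0.0030). In size, the log2 differences ran from 0.36 to 2.36 in females (5 KTC and 2 KT mice) and from 0.37 to 1.65 in males (4 KTC and 2 KT mice). The difference between the sexes passed the threshold in 0 of 24 tests (smallest exact p = 0.0132, adjusted exact p = 0.106). The 2 with an unadjusted exact p under 0.05 were the sizes of Ambra1#1 (5.13-fold in females, 3.13-fold in males) and Ambra1#2 (3.95-fold and 2.71-fold).

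Barcodes shared between mice were concentrated in the Ambra1 guides. Of tumours of at least 500 cells, 81.8% of Ambra1#1, 75.8% of Ambra1#2 and 51.3% of Ambra1#3 tumours had a barcode listed in another mouse too. Apc#1 followed with 49.6% and the inert NT2 with 39.2%, and the other 8 guides lay between 6.80% and 19.8%. In KT and KTC tumours the share was 82.1% and 81.3% for Ambra1#1, 74.9% and 77.3% for Ambra1#2, and 48.2% and 55.6% for Ambra1#3. Barcodes of the Ambra1 guides held 39.5% to 43.5% T at the varying positions, against 10.6% (Neo1) to 34.0% (Apc#1) for the other guides. Neo3 barcodes held 40.3% G, with 14.7% of Neo3 tumours shared, and no base of NT2 barcodes was above 30.8%. Whether base content and sharing are related was not tested. Set against the number of pairs of listings that 2 mice can form, the rate of shared barcodes was 35.5 to 39.3 per 100000000 pairs between KT mice, 33.8 to 41.4 between KTC mice and 33.0 to 42.3 between a KT and a KTC mouse.

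Over barcodes listed in 1 mouse only, the size differences of Ambra1#1 (1.73 on the log2 scale, 8 KTC mice), Ambra1#2 (1.61), Ambra1#3 (1.21), Apc#1 (0.86) and Rbm10#2 (0.67) passed (adjusted exact p = 0.00808 to 0.0313). Rb1#1 (0.43) and Rb1#2 (0.42) then missed the threshold (adjusted exact p = 0.0607 each). For number 0 of 8 guides passed, with differences of 0.17 to 1.02 (smallest adjusted exact p = 0.0783), and 6 of 8 guides passed for burden.

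**Figure D5:**
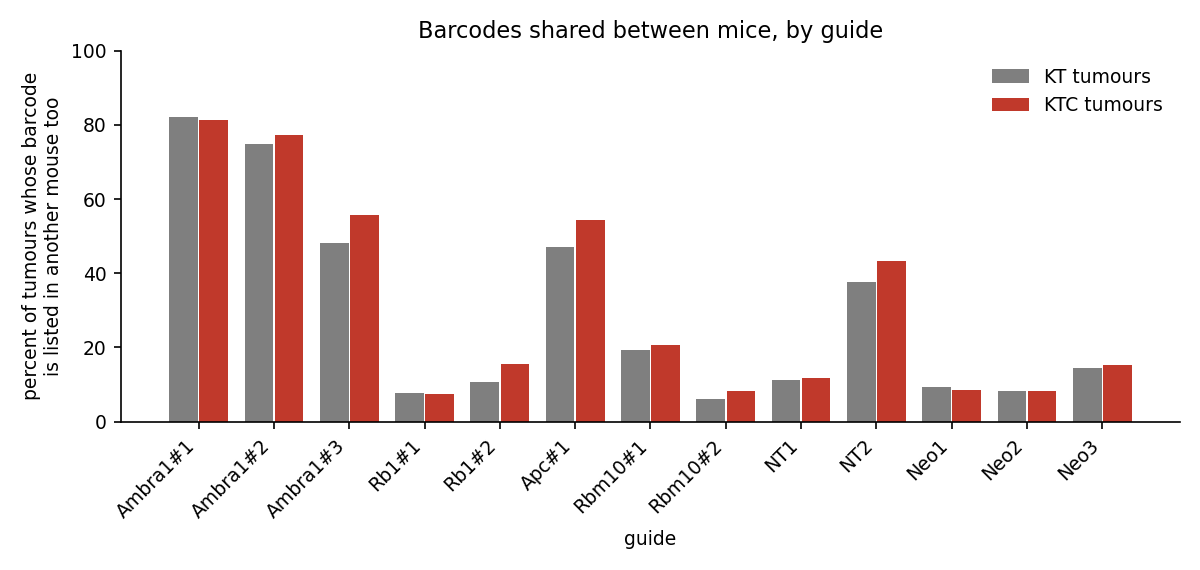
Percent of tumours of at least 500 cells whose guide and barcode is listed in at least 1 other of the 13 mice (vertical axis), by guide, for KT tumours in grey and KTC tumours in red. Bars of the 3 Ambra1 guides, Apc#1 and NT2 stand above the rest in both genotypes, with 82.1% and 81.3% for Ambra1#1.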

How the data were processed

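Genomic DNA of bulk lung was amplified at the guide and barcode region and sequenced, per the labels' protocols. The deposited tables hold, per the file headers, 1 value for each mouse, guide and barcode, a number of neoplastic cells, which the authors computed from reads with benchmark cell lines, per the labels' protocols. The sources used here do not give the trimming or barcode clustering. All values (100%) of a mouse were whole multiples, within 0.1, of its smallest value divided by 2, taken as 1 read. Reads carry no molecular identifiers, so PCR copies are not independent molecules.

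Size, number and burden were log2 ratios to the inert guides of the mouse over tumours of at least 500 cells, and mice were the replicates, numbered in the order of their identifiers. A mouse without tumours for a value was left out of it. Tests were two-sided exact permutations of mouse labels over all 715 splits, with Benjamini-Hochberg adjustment within a measure and a threshold of 0.05. Only the size test was checked on simulated data, in which inert tumours of at least 500 cells were enlarged by known folds. No tumour crossed the minimum in that check, and the other measures were not checked in this way. No count model was used, since barcodes are not features measured in every mouse. Every gene and guide of the pool is named. Mice, guides and tests were chosen with earlier results of these data known. Alternatives were minimum sizes, shared barcodes, other size measures, each mouse or inert guide left out, burden without the largest tumour, and permutation within sex. Added after seeing the data were all listed barcodes, a minimum at 1% of inert barcodes per mouse, leaving out KTC mice 6 and 7, and ranks, largest tumours, percentiles and number-matched sizes over unshared barcodes. Fits and tests were coded in numpy 2.4.6 and pandas 2.3.3 under Python 3.11.15. The KPTC mice were not used here.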

Additional observations from a re-analysis of the deposited data

Results flagged for a closer look

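Of 70 groups of mice examined, 10 held a mouse far from the others of its group, where chance gives about 1 in 20. KTC mouse 6, the lung with 117 tumours, gave 6 of them. Its Rb1#2 value rests on 1 tumour and was -4.86 for number and -5.02 for burden on the log2 scale, where the nearest mice had -3.48 and -2.79. Its Rbm10#1 value was 1.36 for size and 1.53 for burden, where the nearest mice had 0.61 and -0.80. Its log2 inert tumour size was 9.38, where the nearest mouse had 10.13, and its largest tumour, which carries Rbm10#1, held 18.7% of all cells, where the nearest mouse had 7.23%. KTC mouse 2 had an Ambra1#2 log2 size ratio of 2.56, where the nearest mouse had 1.72. Among KT mice, mouse 3 had an Rbm10#1 number ratio of -2.04 against -2.26 in the nearest mouse, and mouse 4 had an Rbm10#2 burden ratio of -2.29 against -3.51 in the nearest mouse. KT mouse 4 also had an Ambra1 share of tumour cells of 10.8%, where the nearest mouse had 15.0%.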

How the results depend on the processing

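Each mouse left out in turn gave 3 to 8 guides called for size (7 with all mice), 0 to 8 for number (6), 4 to 7 for burden (5), 0 to 0 for the inert guides (0), 0 to 2 for shares by size range (2), 1 to 1 for shares of cells (1), 10 to 11 for pairs (11) and 0 to 2 for whole-lung values (0). At a minimum of 200 cells 0 guides passed for number, 1 inert guide (Neo1 size) and 2 whole-lung values (log2 tumour number and log2 inert tumour number) passed, and at 1000 cells 1 of 28 pairs passed. At 5000 cells 0 guides passed for size, and Rbm10#2 size turned to -0.33. Ambra1#1 number turned to -0.045 at 200 cells. Over all listed barcodes 0 guides were called higher in number, and Ambra1#1 number turned to -0.25, Ambra1#2 number to -0.16, Ambra1#3 number to -0.0086, Apc#1 number to -0.0081, and Rbm10#1 number and Rbm10#2 number to -0.29. Barcodes listed in 1 mouse only gave 0 calls for number, 0 for shares by size range and 2 for pairs, and 3 for size taken at the 95th percentile. Permutation within sex gave 0 calls for shares by size range. Burden without the largest tumour of each guide and mouse gave 8 calls. Leaving out KTC mice 6 and 7 gave 2 whole-lung calls. The causes were not tested. No barcode lay 1 mismatch from a barcode 50 times larger, so that alternative removed none. A further 68 sign changes were of values with no call on either side. The burden of the 3 Ambra1 guides and of Apc#1, and the Ambra1 share of cells, kept their call with every single mouse left out. No paired analysis was possible because the labels give no replicate numbers that KT and KTC mice share.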
